A study of Rattus norvegicus with 14 samples.

Results

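The genes described here are Asns, Phgdh, Psat1, Atf4, Atf5, Ddit3 and Trib3, 7 of the 16472 genes measured, which are grouped here as asparagine synthetase, serine synthesis and the amino acid stress response. They were chosen by gene symbol after the time course of Asns in these retinas was known, so their retina values over the day are given as a description, with no test. Expression was measured as FPKM (read fragments scaled by transcript length and by the library's total) in Sprague-Dawley rats of 6 to 8 weeks, for which the labels name no transgene and no treatment beside the lighting schedule of 14 h of light and 10 h of darkness. Pineal glands and retinas were each collected at zeitgeber time (ZT, hours after lights on) 1, 7, 13, 15, 19 and 23, in pools of 10 animals. Mixed tissue, which joined equal RNA of 15 tissues with the retina among them, came from pools of 3 animals at ZT7 and ZT19. That gave 6 pineal, 6 retina and 2 mixed tissue libraries, with 1 library for each tissue and time, so a value at a single time has no error of its own.

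Cells short of an amino acid, or under stress of the endoplasmic reticulum, phosphorylate the translation factor eIF2alpha, which lowers protein synthesis in general and lets the mRNA of the transcription factor ATF4 be translated. ATF4 binds the C/EBP-ATF response element with C/EBP partners and raises genes of amino acid synthesis, amino acid transport and tRNA charging. Because ATF4 is controlled largely by translation, its mRNA level does not give its protein level.

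The upstream 150 bases of 4 of the genes are shown because their levels differed most between tissues or changed over the day in the pineal gland. They are RefSeq sequences of the GRCr8 assembly, written 5′ to 3′ on the strand of the gene and ending at the base before the annotated start. Capitals mark the core of the C/EBP-ATF response element, spelled TGATGNAA and searched on both strands of a window from 250 bases before to 50 bases after each start.
Asns (chr4:36769416-36769565, minus strand): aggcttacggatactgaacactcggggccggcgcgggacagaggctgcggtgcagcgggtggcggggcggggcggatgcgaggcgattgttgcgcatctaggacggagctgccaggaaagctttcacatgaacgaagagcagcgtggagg
Psat1 (chr1:222645409-222645558, minus strand): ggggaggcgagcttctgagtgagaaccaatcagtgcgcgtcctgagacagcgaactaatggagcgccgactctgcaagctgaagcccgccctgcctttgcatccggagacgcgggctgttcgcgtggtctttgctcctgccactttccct
Ddit3 (chr7:65001545-65001694, plus strand): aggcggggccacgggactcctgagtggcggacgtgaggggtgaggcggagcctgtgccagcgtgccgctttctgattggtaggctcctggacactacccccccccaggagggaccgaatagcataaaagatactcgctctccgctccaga
Trib3 (chr3:161275534-161275683, minus strand): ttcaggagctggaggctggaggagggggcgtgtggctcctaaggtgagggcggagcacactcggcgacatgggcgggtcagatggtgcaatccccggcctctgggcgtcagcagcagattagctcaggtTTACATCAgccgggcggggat

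All 7 genes had a window, and the core was found in 1 of 7 windows, that of Trib3. There it reads on the strand opposite to that of the gene, and the marked letters begin 21 bases before the start. Over all genes with a window, 1048 of 27457 (3.82%) held it. Another motif, the cAMP response element TGACGTCA, was in 0 of 7 windows of these genes and in 525 of 27457 windows overall (1.91%). The core was also in the windows of 7 of 17 cytosolic tRNA synthetase genes, 6 of 15 ATF4 target genes and 3 of 9 amino acid transporter genes. It was in 1 of 9 windows of eIF2alpha kinases, phosphatase subunits and regulators. For asparagine, aspartate and glutamine enzymes it was in 1 of 8. It was in 0 of 7 windows of serine, glycine and one-carbon enzymes and in 0 of 9 of other ATF, CEBP and tribbles genes. The match of Trib3 and those of 6 synthetase genes follow, with up to 10 bases on each side, since the retina values of the synthetases are set beside them later. A match is only a run of letters in a window. A window without a match does not show that the gene lacks the element, since only this exact core around 1 annotated start was searched.
Trib3 (chr3:161275537-161275564, minus strand): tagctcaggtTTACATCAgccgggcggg
Cars (chr1:208225335-208225362, minus strand): ggcgccgcggTTGCATCAgattctggaa
Yars (chr5:146820191-146820212, plus strand): cgagctcagcTGATGCAAcctg
Mars (chr7:65023753-65023780, minus strand): cccgttccggTTGCATCAgcgtgggctc
Tars (chr2:62114812-62114839, minus strand): tggcgtcccgTTGCATCAgctggttagc
Iars (chr17:15193659-15193686, minus strand): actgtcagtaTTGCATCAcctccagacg
Nars (chr18:60275779-60275806, minus strand): ctaggtgatcTGATGCAAcgcttcagtc

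Several libraries stood apart before any single gene was considered. The median log2 deviation from the tissue mean, over all genes tested, was +0.14 in the retina ZT7 library and -0.13 in the pineal ZT19 library, and lay within 0.08 of 0 in the other 10. Retina ZT7 was the highest retina library for 51.2% of all genes tested, and for 16.1% after median ratio scaling, which sets the median gene equal across libraries. The summed markers matched the tissue labels: pinealocyte genes summed to 4163 to 4728 FPKM in pineal glands and 9.48 to 17.7 FPKM in retinas, and rod and cone genes to 24.0 to 70.3 FPKM in pineal glands and 11929 to 16094 FPKM in retinas, with ZT7 highest. Other tissue was present in both. The 6 of 7 lens genes found summed to between 77.3 FPKM at ZT7 and 1312 FPKM at ZT19 in the retinas, and the 6 of 6 genes of meninges and choroid plexus to between 788 FPKM at ZT23 and 3722 FPKM at ZT15 in the pineal glands. Blood genes (3 of 3 found) summed to 990 to 1862 FPKM in pineal glands, 65.8 to 135 FPKM in retinas and 1583 to 2088 FPKM in mixed tissue, and microglia genes (5 of 5) to 30.5 to 46.9, 9.01 to 14.0 and 69.7 to 75.0 FPKM in the same order of tissues. Their part in the tissue differences was not tested. Müller glia and astrocyte genes (6 of 8 found) summed to 105 to 165 FPKM in pineal glands, 239 to 281 FPKM in retinas and 571 to 672 FPKM in mixed tissue. Fewer cells of a type and less RNA per cell cannot be told apart in such tissue.

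Asns, asparagine synthetase (gene ID 25612, chr4:32758868-32776220 in rn4), makes asparagine from aspartate and glutamine and was the gene of the group that was most enriched in the pineal gland. It had 61.5, 69.4, 55.4, 49.4, 43.5 and 52.1 FPKM in pineal glands in the order of the 6 times, ZT1 to ZT23. The retinas had 8.37, 29.3, 14.0, 12.9, 7.71 and 7.80 FPKM at the same times, and mixed tissue had 10.1 FPKM at ZT19 and 10.9 FPKM at ZT7. Every pineal library was above every retina and mixed tissue library, and the nearest retina library was ZT7. The means were 55.2 ± 9.18 FPKM in pineal glands (SD, n = 6), 13.4 ± 8.29 FPKM in retinas (SD, n = 6) and 10.5 ± 0.62 FPKM in mixed tissue (SD, n = 2). Pineal glands were above retinas by 2.11 on the scale of log2(FPKM + 1), with an SE of 0.25 and an adjusted p of 2.5e-06 (limma with Benjamini-Hochberg adjustment). Without the retina ZT7 library the difference was 2.36 (adjusted p = 1.23e-08, limma). Pineal glands were above mixed tissue by 2.28 (SE 0.36, adjusted p = 4.38e-05, limma). Retinas and mixed tissue differed by 0.16 (SE 0.36, adjusted p = 0.705, limma), and by -0.08 without retina ZT7.

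Psat1 went the other way from Asns. Phgdh, phosphoglycerate dehydrogenase (gene ID 58835, chr2:193147943-193177137), catalyses the first step from glycolysis towards serine, and Psat1, phosphoserine aminotransferase 1 (gene ID 293820, chr1:219268420-219290273), the next. Psat1 had 1.45, 1.29, 1.41, 1.62, 1.01 and 1.35 FPKM over the 6 times in pineal glands, against 15.4, 11.6, 10.3, 9.50, 10.5 and 11.9 FPKM in retinas, and 26.1 FPKM at ZT19 and 24.6 FPKM at ZT7 in mixed tissue. The 3 tissues did not overlap. The pineal gland was below the retina by a log2 difference of -2.40 (SE 0.10, adjusted p = 1.4e-11) and below mixed tissue by -3.49 (SE 0.15, adjusted p = 7.01e-12), and the retina was below mixed tissue by -1.09 (SE 0.15, adjusted p = 9.27e-06, all by limma). Phgdh averaged 5.58 ± 1.12 FPKM in pineal glands, 4.94 ± 0.71 FPKM in retinas (SD, n = 6 each) and 15.6 ± 0.071 FPKM in mixed tissue (SD, n = 2). The pineal and retina values, at 3.66 to 6.91 FPKM and 4.06 to 5.91 FPKM, overlapped and did not differ beyond their spread (0.14, SE 0.12, adjusted p = 0.320, limma). Both tissues were below mixed tissue, the pineal gland by -1.35 (SE 0.17, adjusted p = 3.75e-06) and the retina by -1.49 (SE 0.17, adjusted p = 1.44e-06, limma). Psph, phosphoserine phosphatase and the last enzyme of the pathway, was outside the 7 genes and had 34.3 to 57.5 FPKM in pineal glands against 4.81 to 10.5 FPKM in retinas (2.62, SE 0.16, adjusted p = 1.39e-09, limma). The 3 enzymes of serine synthesis were therefore measured level with, below and above the retina in the pineal gland.

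Among the transcription factors, Atf4 (gene ID 79255, chr7:118537718-118538994) was the most abundant. It had 60.5, 52.0, 54.0, 55.5, 51.2 and 57.7 FPKM over the 6 times in pineal glands, against 181, 217, 165, 154, 152 and 146 FPKM in retinas, and 68.2 FPKM at ZT19 and 83.0 FPKM at ZT7 in mixed tissue. The pineal gland was below the retina by a log2 difference of -1.59 (SE 0.098, adjusted p = 1.16e-09, limma), with no overlap. So the tissue with more Asns mRNA had less Atf4 mRNA. The retina was above mixed tissue by 1.15 (SE 0.14, adjusted p = 3.08e-06, limma), and the pineal gland was below it by -0.44 (SE 0.14, adjusted p = 0.0113, limma). The last difference missed the threshold after median ratio scaling (-0.20, adjusted p = 0.105) and without mixed tissue ZT7 (adjusted p = 0.187).

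Ddit3, which encodes CHOP, a transcription factor tied to cell death under prolonged stress of the endoplasmic reticulum (gene ID 29467, chr7:67247749-67252571, the sum of 2 transcripts listed at the same span), was higher in the pineal gland. It had 28.2, 19.01, 18.8, 18.7, 38.4 and 34.9 FPKM over the 6 times in pineal glands, against 15.2, 21.7, 16.7, 19.02, 15.8 and 13.9 FPKM in retinas, and 10.9 FPKM at ZT19 and 12.1 FPKM at ZT7 in mixed tissue. Pineal and retina libraries overlapped between 18.7 and 21.7 FPKM, while all pineal libraries were above both mixed tissue libraries. The log2 difference of the pineal gland was 0.55 from the retina (SE 0.18, adjusted p = 0.0129, limma) and 1.07 from mixed tissue (SE 0.25, adjusted p = 0.00175, limma), and that of the retina from mixed tissue was 0.51 (SE 0.25, adjusted p = 0.0885, limma). After quantile normalization the first was 0.34 (adjusted p = 0.0846). The last 62 bases of the Ddit3 span, chr7:67252510-67252571, are shared with Mars, the methionyl-tRNA synthetase gene, and the sources do not say whether reads kept their strand. Mars had 29.0, 33.8, 33.1, 27.7, 18.7 and 27.9 FPKM in pineal glands over the day, lowest at ZT19 where Ddit3 was highest. In retinas Mars had 16.9, 29.3, 20.8, 21.6, 15.4 and 15.5 FPKM, highest at ZT7 as Ddit3 was. The part of shared reads in the Ddit3 values was not tested in either tissue.

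Atf5 (gene ID 282840, chr1:95284511-95286786), another member of the ATF family whose translation rises when eIF2alpha is phosphorylated, averaged 9.71 ± 2.12 FPKM in pineal glands, 7.47 ± 2.95 FPKM in retinas (SD, n = 6 each) and 21.9 ± 9.42 FPKM in mixed tissue (SD, n = 2). Mixed tissue itself held 15.3 FPKM at ZT19 and 28.6 FPKM at ZT7. Pineal glands and retinas overlapped (0.38, SE 0.23, adjusted p = 0.145, limma) and both were below mixed tissue, by -1.06 (SE 0.32, adjusted p = 0.00889) and -1.44 (SE 0.32, adjusted p = 0.00101, limma). Without mixed tissue ZT7 the pineal difference was -0.63 (adjusted p = 0.206). Trib3 (gene ID 246273, chr3:142664651-142670135), a pseudokinase that ATF4 and CHOP induce and that restrains them, was low in all tissues, at 1.06 to 2.64 FPKM in pineal glands, 1.12 to 2.54 FPKM in retinas, and 0.821 FPKM at ZT19 and 1.29 FPKM at ZT7 in mixed tissue. None of its 3 tissue differences passed the threshold with FPKM as deposited (adjusted p = 0.702 for pineal gland against retina, 0.149 for pineal gland against mixed tissue and 0.0863 for retina against mixed tissue, limma). After quantile normalization it was above mixed tissue by 1.44 in pineal glands (adjusted p = 2.42e-05) and by 1.32 in retinas (adjusted p = 5.71e-05).

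**Figure D1:**
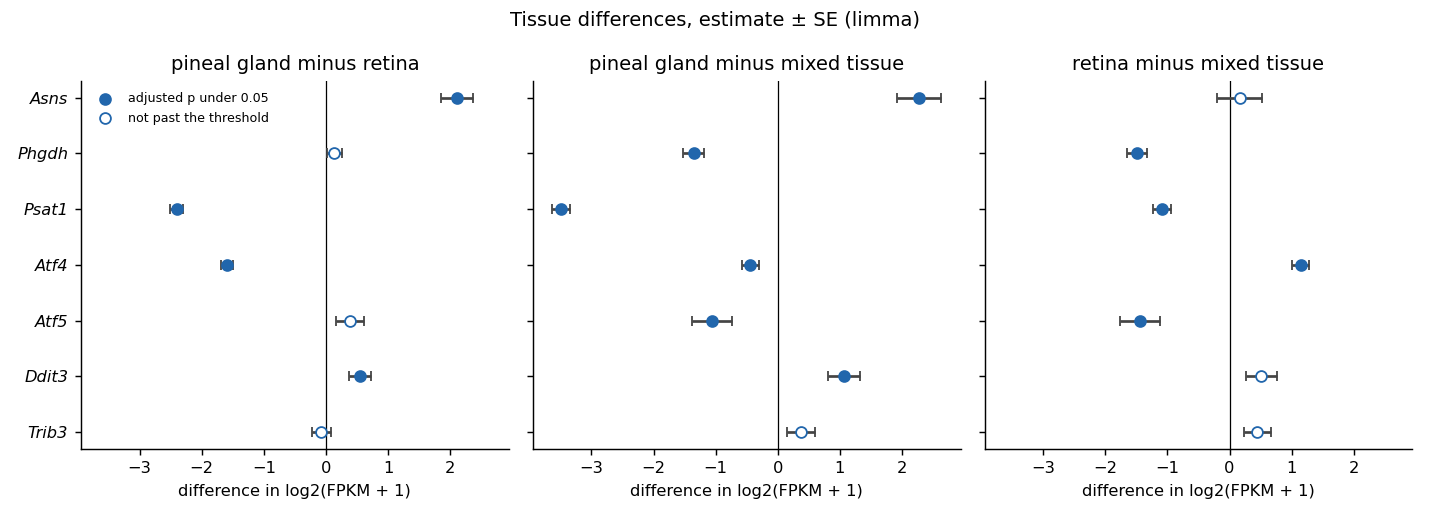
Log2 differences of log2(FPKM + 1) for the 7 genes between pineal gland and retina, pineal gland and mixed tissue, and retina and mixed tissue, with bars of 1 SE; filled points have an adjusted p under 0.05 by limma. Asns stands 2.11 above the retina in the pineal gland, while Psat1 stands at -2.40 and Atf4 at -1.59.

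In all, 2 of 7 genes were higher in the pineal gland than in the retina and 2 of 7 lower, where 36.9% and 32% of all 11656 genes tested were. Against mixed tissue the pineal gland had 2 of 7 higher and 4 of 7 lower (19.8% and 45% of all genes), and the retina 1 of 7 higher and 3 of 7 lower (18.4% and 46.6% of all genes). These comparisons share libraries. The median of all genes was -0.25 for the pineal gland and -0.30 for the retina against mixed tissue, and the split of calls depends on scaling: 30.5% of the pineal calls were higher with FPKM as deposited, 60.3% after quantile normalization and 43.7% after median ratio scaling, and 28.3%, 59.6% and 46.4% of the retina calls.

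Genes of the wider pathway, taken from 7 lists of which 89 of 94 genes were found, were higher in the pineal gland than in the retina for 46 of 83 genes tested and lower for 16, where 36.9% of all genes were higher and 32% lower. The cytosolic tRNA synthetases, which charge tRNAs with their amino acids, were higher for 15 of 18 and lower for 0 of 18, led by Cars (1.66, adjusted p = 1.71e-06) and Lars (1.25). Cars had 23.7 to 42.9 FPKM in pineal glands and 8.09 to 19.3 FPKM in retinas. Serine, glycine and one-carbon enzymes were higher for 7 of 9 and lower for 2, with Aldh1l2, a mitochondrial folate enzyme, at 4.81 to 19.1 FPKM in pineal glands and 0.119 to 0.323 FPKM in retinas (3.37, adjusted p = 1.71e-08), and Gldc of glycine breakdown lower (-1.01). Of the ATF4 target genes 6 of 17 were higher and 4 lower, near the shares of all genes. The proline synthesis genes Pycr1 (2.19, adjusted p = 5.53e-09) and Aldh18a1 (1.44, adjusted p = 4.53e-06) were higher, and Ddit4, an inhibitor of mTORC1 signalling, was lower (-1.50), as was Jdp2 (-1.05).

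Amino acid transporters, with 3 of 11 higher and 4 of 11 lower, were near the shares of all genes (36.9% and 32%): Slc1a5, a carrier of glutamine and other neutral amino acids, was higher (2.48, adjusted p = 5.57e-06), as was Slc38a1 (0.71), while Slc7a3 of cationic amino acids (-1.79) and the glycine carrier Slc6a9 (-1.48) were lower. Among asparagine, aspartate and glutamine enzymes 5 of 9 were higher and 1 lower. Asl and Ass1, which follow each other in arginine synthesis, stood apart in opposite directions, Asl at 2.89 (adjusted p = 8.91e-05) and Ass1 at -2.86 (adjusted p = 3.8e-10). Of the eIF2alpha kinases, phosphatase subunits and regulators 4 of 8 were higher, among them the heme-regulated kinase Eif2ak1 (1.101), and 2 of 8 lower, namely the phosphatase subunit Ppp1r15a (-0.70) and the kinase Eif2ak3 (-0.67). The other ATF, CEBP and tribbles genes were higher for 6 of 11 and lower for 3 of 11, with Creb3l2 (1.28) and Nfe2l2 (1.26) higher and Trib2 (-1.88) and Trib1 (-0.89) lower. All of these are log2 differences by limma. Against mixed tissue, the lists had 24 of 83 genes higher and 24 lower in the pineal gland, and 12 higher and 34 lower in the retina, where 19.8% and 45% of all genes were for the pineal gland and 18.4% and 46.6% for the retina.

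**Figure D2:**
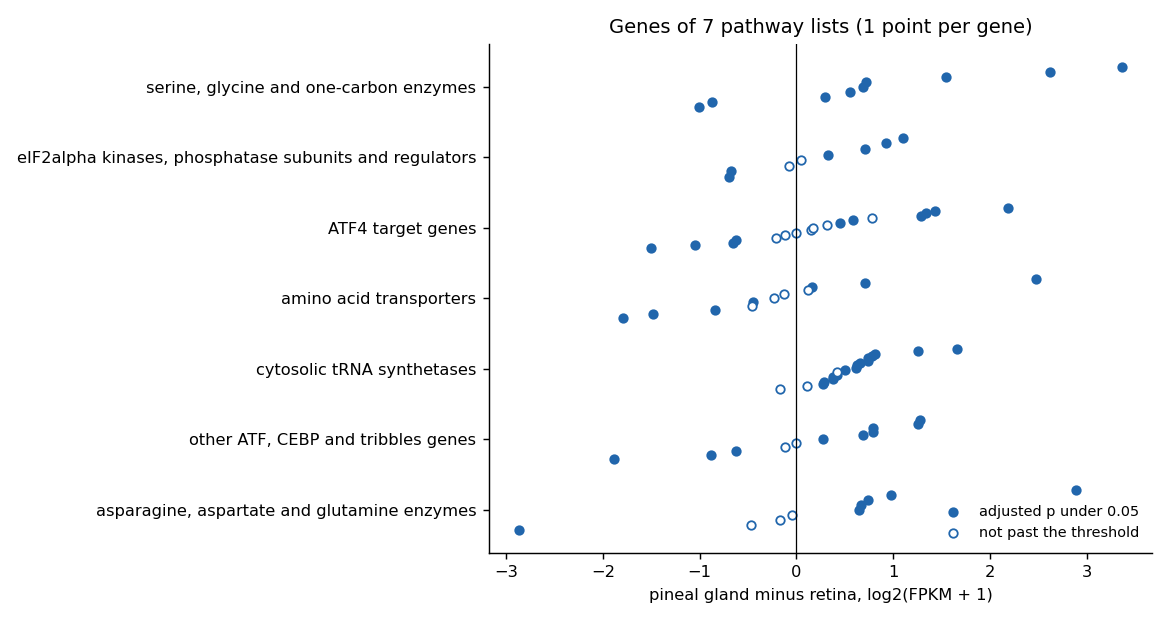
Difference of log2(FPKM + 1) between pineal gland and retina for each gene of the 7 pathway lists, 1 point per gene; filled points passed the limma test and the height within a list only separates the points. Cytosolic tRNA synthetases have 15 of 18 points filled, all on the side of the pineal gland, and Asl and Ass1 lie at the ends of the lowest list, at 2.89 and -2.86.

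Over the day in the pineal gland, Ddit3 was highest in the late dark. Its late dark libraries had 38.4 FPKM at ZT19 and 34.9 FPKM at ZT23, and its light libraries 28.2, 19.01 and 18.8 FPKM at ZT1, ZT7 and ZT13. At ZT15, 1 h after lights off, it was at 18.7 FPKM, level with the afternoon. A 24-h cosine gave a peak to trough of 1.14 on the log2 scale with the peak at ZT21.8 (adjusted p = 0.00719, limma). That rhythm kept its call in 19 of 20 alternatives, and missed it with the pineal gland fitted alone after median ratio scaling (adjusted p = 0.0591). Late dark (ZT19 and ZT23) was above light (ZT1, ZT7 and ZT13) by 0.73 (SE 0.19, adjusted p = 0.042, limma), a call lost in 11 of 21 alternatives, with adjusted p up to 0.527 where ZT15 was counted as late dark. Of its 2 transcripts, the more abundant had 17.9, 16.8, 12.9, 16.6, 23.5 and 29.0 FPKM over the 6 times in pineal glands, and the other 10.3, 2.18, 5.88, 2.08, 14.9 and 5.91 FPKM, so their order of times was not the same.

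Trib3 had 2.02, 1.40, 1.19, 1.06, 1.92 and 2.64 FPKM over the 6 times in pineal glands, lowest around lights off and highest at ZT23. Its fitted peak to trough was 0.73 with the peak at ZT23.5 (adjusted p = 0.0284, limma). The call was lost in 6 of 19 alternatives, among them without pineal ZT13 (adjusted p = 0.0657), ZT15 (0.056) or ZT23 (0.145). Its late dark libraries were above the light ones by 0.37 (SE 0.22, adjusted p = 0.311, limma).

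The other 5 genes did not pass the rhythm test in the pineal gland. Asns had its highest value at ZT7 and its lowest at ZT19, with a fitted peak to trough of 0.67 peaking at ZT6.3 (adjusted p = 0.0998, limma). It passed without retina ZT7 (adjusted p = 0.0166) or retina ZT13 (0.0487), which changes only the shared error. Phgdh (0.53, adjusted p = 0.165) and Atf5 (0.61, adjusted p = 0.189) passed without pineal ZT7. Their fitted ranges were then 1.13 (adjusted p = 0.0435) and 1.61 (adjusted p = 0.00607, limma), against 1.501 for Ddit3. That fit had no pineal library between ZT1 and ZT13, where its peaks for Phgdh (ZT7.97) and Atf5 (ZT6.70) lay. The measured pineal ranges of log2(FPKM + 1) over the 6 times were 0.762 for Phgdh, 0.868 for Atf5 and 0.999 for Ddit3. Atf4 (0.12, adjusted p = 0.701) and Psat1 (0.11, adjusted p = 0.877) had small fitted ranges. Asns, Phgdh, Psat1, Atf4 and Atf5 each had their lowest pineal value at ZT19, the library whose median gene was also lowest. After median ratio scaling Phgdh, Psat1 and Atf5 stayed lowest at ZT19. Asns was then lowest at ZT15 (44.8 FPKM, against 47.0 FPKM at ZT19) and Atf4 at ZT7 (49.2 FPKM, against 55.4 FPKM at ZT19).

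In all, 2 of 7 genes were rhythmic in the pineal gland, where 20.7% of all 10416 genes tested were. Without single libraries this was 1 (pineal ZT13, ZT15 or ZT23) to 4 (pineal ZT7). Late dark was called higher for 1 of 7 genes and lower for 0 of 7, where 3.04% and 4.23% of all genes were, with a median of -0.12 over all genes. Of the rhythm calls over all genes 31.9% peaked in the dark with FPKM as deposited, 41.2% after quantile normalization and 47.7% after median ratio scaling, and of the late dark calls 41.8%, 61% and 66.3% were higher.

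**Figure D3:**
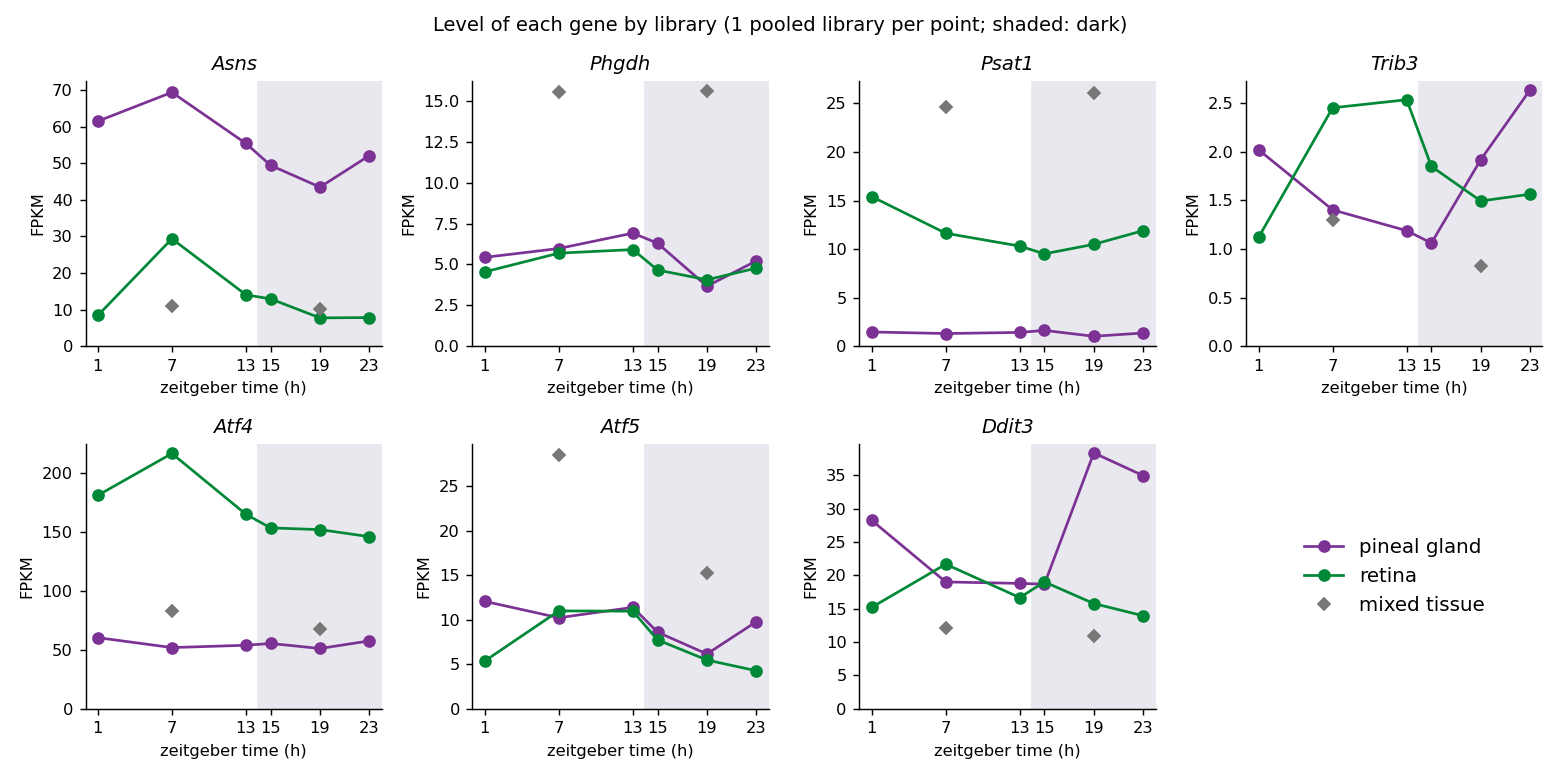
FPKM of the 7 genes at each ZT in pineal glands, retinas and mixed tissue, 1 library per point, with the dark hours shaded. Asns peaks at ZT7 in both time series, at 69.4 FPKM in pineal glands and 29.3 FPKM in retinas, and Ddit3 is highest at ZT19 in pineal glands (38.4 FPKM) and at ZT7 in retinas (21.7 FPKM).

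The wider lists had 22 of 80 genes rhythmic in the pineal gland, where 20.7% of all genes tested were. Of these 22, 14 peaked in the dark and 8 in the light, where 31.9% of all rhythm calls peaked in the dark with FPKM as deposited. That share of all calls depends on scaling, at 41.2% after quantile normalization and 47.7% after median ratio scaling. In those settings 25 and 29 list genes passed, and their peak times were not counted. The count of 22 was 9 without pineal ZT23, 34 without pineal ZT7, and 7 with the pineal gland fitted alone. Asl, argininosuccinate lyase, had the largest range of these lists, with 84.0, 22.2, 8.79, 10.3, 45.6 and 94.9 FPKM over the 6 times (peak to trough 3.43, peak ZT24.0, adjusted p = 9e-06, limma). The glutaminase gene Gls2 peaked at ZT22.1 (2.41, adjusted p = 0.00556). Of the ATF4 targets, Gdf15, a secreted stress factor, had 4.86, 2.64, 1.53, 2.69, 10.0 and 13.2 FPKM (2.36, adjusted p = 0.0183), Xpot, which exports tRNAs from the nucleus, had 21.2, 10.6, 11.6, 12.6, 39.3 and 37.4 FPKM (2.08, adjusted p = 0.00131), and Chac1, a glutathione-degrading enzyme, had 5.61, 4.34, 3.02, 2.12, 1.97 and 7.79 FPKM (peak ZT2.85, adjusted p = 0.0248). Amino acid transporters passed for 5 of 10 genes, beside the 20.7% of all genes. Slc1a5 had 17.8, 7.19, 5.60, 6.57, 7.22 and 30.2 FPKM (1.92, adjusted p = 0.0104), and Slc7a5 (1.29, adjusted p = 0.00136) and Slc7a1 (1.04, adjusted p = 0.022) peaked at ZT22.3 and ZT23.0. Here Slc7a5 carries large neutral amino acids, tryptophan among them, and Slc7a1 cationic ones.

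One-carbon enzymes differed in phase. Aldh1l2 peaked in the light (1.82, ZT9.8, adjusted p = 0.0045), and Mthfd2 (0.97, ZT21.9, adjusted p = 0.03) and Mthfd1l (0.53, ZT15.3, adjusted p = 0.0388) in the dark. Synthetases passed for 3 of 18 genes, near the 20.7% of all genes. These were Farsb (0.76), Farsa (0.76) and Dars (0.56), with peaks between ZT8.02 and ZT10.5. The kinase Eif2ak4, which senses uncharged tRNA, peaked at ZT9.59 (0.61, adjusted p = 0.0416), Nck1 at ZT18.6 (0.60, adjusted p = 0.0376) and Eif2ak1 at ZT22.7 (0.53, adjusted p = 0.0387). Creb3, a transcription factor of the same wider family, peaked at ZT23.3 (0.88, adjusted p = 0.012). Late dark was called higher for 8 of 80 list genes and lower for 4, where 3.04% and 4.23% of all genes were. The total of 12 was 2 without pineal ZT19, 17 without pineal ZT1 and 0 with ZT15 counted as late dark. The rhythms of the pineal gland and the retina differed by the interaction test for 8 of 80 list genes, where 4.95% of all genes did. That count was 2 without retina ZT7 and 20 without pineal ZT19.

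In the retina, the time course of Asns rose to a single high library. ZT7 stood at 29.3 FPKM, 3.80-fold the lowest library (ZT19, 7.71 FPKM), ZT13 and ZT15 stood at 14.0 and 12.9 FPKM, and ZT1, ZT19 and ZT23 lay between 7.71 and 8.37 FPKM. The fitted peak to trough was 1.87 with the peak at ZT8.5, and 1.09 without ZT7. After median ratio scaling the 6 retina values were 8.58, 26.4, 14.3, 13.2, 8.51 and 8.52 FPKM, so ZT7 stayed the highest and the order of ZT7, ZT13 and ZT15 was kept. Rod and cone markers were also highest at ZT7, and lens markers lowest there; their part in the Asns values was not tested.

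Atf5 had 5.37, 11.004, 10.97, 7.74, 5.48 and 4.27 FPKM over the 6 times in retinas, a fitted peak to trough of 1.31 with the peak at ZT9.81. Unlike Asns, it was as high at ZT13 as at ZT7. Trib3 had 1.12, 2.45, 2.54, 1.85, 1.49 and 1.56 FPKM, with a range of 0.67. Its fitted peak was at ZT23.5 in pineal glands and at ZT10.2 in retinas, a difference that was not tested. Atf4 (0.57, peak ZT6.73), Ddit3 (0.50, ZT9.27), Psat1 (0.49, ZT2.56) and Phgdh (0.42, ZT8.56) had smaller fitted ranges. After median ratio scaling the ranges of Atf4, Ddit3 and Phgdh were 0.30, 0.27 and 0.19, while Asns was at 1.61 and Atf5 at 1.11. Retina ZT7 was the highest library for Asns, Atf4, Atf5 and Ddit3, as it was for 51.2% of all genes tested. After median ratio scaling, where that share was 16.1%, Asns and Atf4 stayed highest at ZT7. Atf5 was then highest at ZT13 (11.2 FPKM, against 9.91 FPKM at ZT7), and Ddit3 had 19.5 FPKM at ZT7 and 19.4 FPKM at ZT15. Without retina ZT7 the range of Ddit3 was 0.28.

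**Figure D4:**
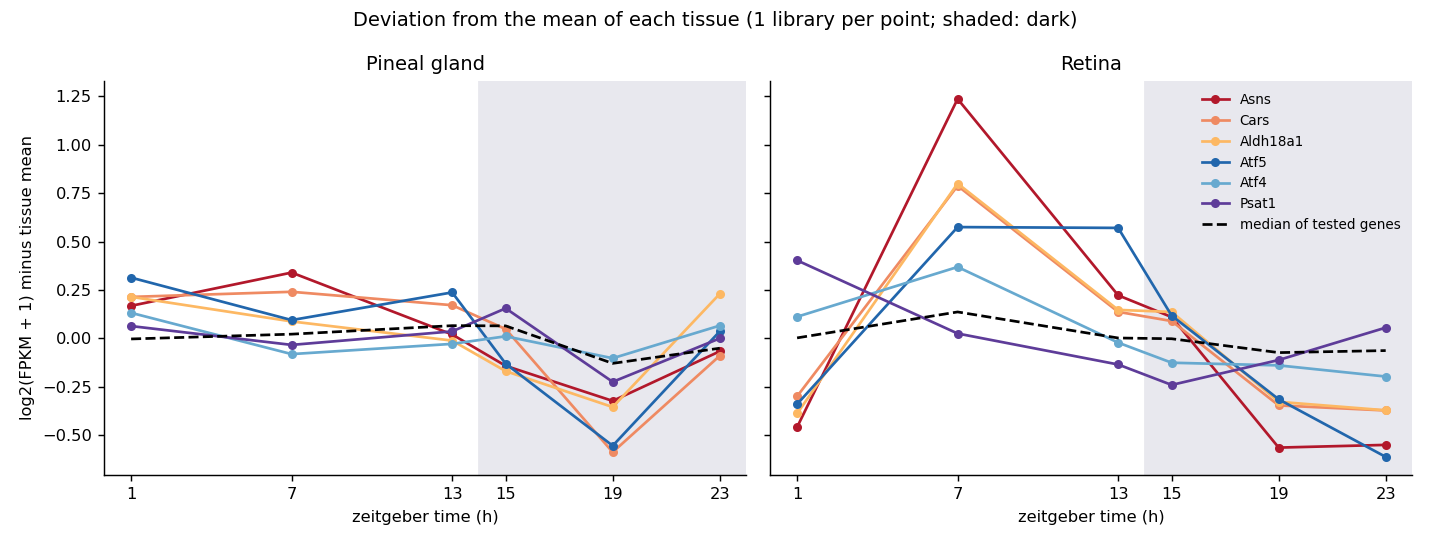
Deviation of log2(FPKM + 1) from the tissue mean at each ZT in pineal glands and retinas, 1 library per point, for Asns, Atf4, Atf5 and Psat1, for Cars and Aldh18a1, whose retina values were most like those of Asns, and for the median of all genes tested (dashed), with the dark hours shaded. Asns at ZT7 is the farthest point in the retina, where the median gene is at +0.14, and the median of the pineal gland is lowest at ZT19, at -0.13.

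The retina courses of the wider lists were tested, though the lists were chosen with earlier results of these data known. The shares of list genes that passed are therefore a description and no independent test. With both tissues in 1 fit, 0 of 80 list genes passed (limma; 1.02% of all genes did, and 2251 of 10416 had an unadjusted p under 0.05). Without pineal ZT19, which enters only the shared error, 13 of 80 passed. With the 6 retina libraries fitted alone, with 3 residual degrees of freedom, 20 of 77 passed, where 8.06% of all 9693 genes did, and 17 of these 20 peaked in the light, as did 83.7% of all genes called. After median ratio scaling as well, a setting chosen after the data were seen, 13 of 77 passed, where 3.22% of all genes did, and 8 of 13 peaked in the light, against 45.8% of all genes called. Cytosolic tRNA synthetases made up 8 of the 20 and 6 of the 13. Cars, cysteinyl-tRNA synthetase, led them with 8.56, 19.3, 11.9, 11.5, 8.26 and 8.09 FPKM over the 6 times (1.19, peak ZT8.57, adjusted p = 0.0185, limma, retina alone). Psph, with 6.37, 10.5, 8.67, 7.12, 4.81 and 4.995 FPKM (1.08, peak ZT8.61, adjusted p = 0.0089), and Aldh18a1 (1.203, peak ZT8.84, adjusted p = 0.0258) also peaked in the day, and both held after scaling. Trib1 (1.04) and Nfe2l2 (0.71) peaked at ZT21.9 and ZT20.8 and held as well.

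The synthetases that passed were set beside the core of the C/EBP-ATF response element printed above, a comparison made after their values were seen. Of the 7 with the core in the window, 7 passed in the retina fitted alone, and of 9 without it 1 passed (Hars). These counts depend on the threshold: without the core Sars and Lars missed it narrowly, at adjusted p of 0.0513 and 0.0517 (limma). Nars, with the core, passed at 0.032, and Hars at 0.0441. Their fitted ranges did not overlap, at 0.64 for Nars to 1.19 for Cars with the core and at most 0.58 (Eprs) without it. Rars and Dars, at 0.73 and 0.39, were tested but not searched for the core and stand outside these counts. The range of Rars is above that of Nars, also after median ratio scaling (0.50 against 0.40). After median ratio scaling 6 of 7 with the core and 0 of 9 without it passed. Over all genes but the 7 described here, 25 of 150 with the core (16.7%) and 625 of 7783 without it (8.03%) passed in the retina fitted alone, and 13 of 150 (8.67%) and 241 of 7783 (3.1%) after scaling. These sets still hold the synthetases, so 7 of the 25 and 6 of the 13 are the ones already counted above. Among pathway genes other than the synthetases, 3 of 9 with the core and 6 of 38 without it passed, and 1 of 9 and 3 of 38 after scaling, and their median ranges were close, at 0.411 and 0.392 (0.314 and 0.305 after scaling). In the pineal gland 0 of 7 synthetases with the core and 2 of 9 without it were rhythmic. Their median fitted ranges there were 0.702 with the core and 0.311 without it, against 0.851 and 0.374 in the retina fitted alone. These are counts and ranges, with no test. Asns itself, with a retina range of 1.87 (1.09 without ZT7, where Atf5 was at 1.29), had no match in its window, while Trib3, which has one, had a range of 0.67. Elements outside the window or spelled otherwise were not searched.

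**Figure D5:**
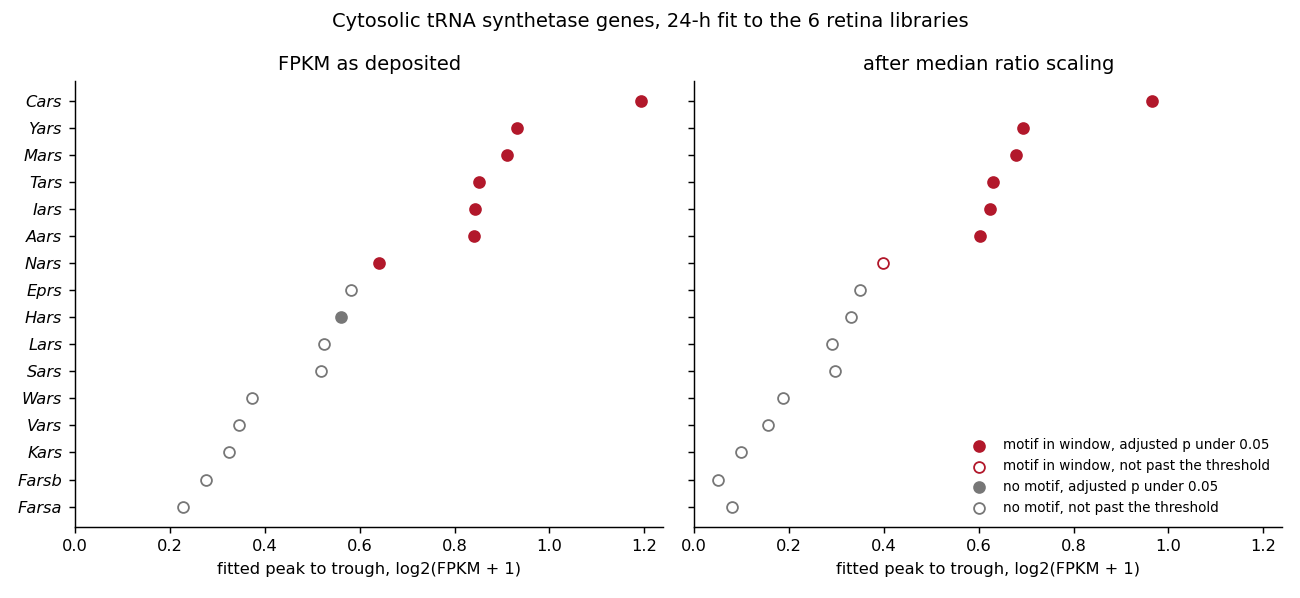
Fitted peak to trough of 16 cytosolic tRNA synthetase genes in the retina fitted alone, on the scale of log2(FPKM + 1), with FPKM as deposited and after median ratio scaling. Genes with the motif in the promoter window are in red and filled points have an adjusted p under 0.05. Among these 16 genes the 7 red points have the 7 largest ranges in both panels. Rars, which was not searched for the motif and is not shown, had ranges of 0.73 and 0.50, above Nars at 0.64 and 0.40.

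Among the genes whose retina values were most like those of Asns were Cars (Pearson r of 0.9995 over 6 libraries), Aldh18a1 (0.994), Guca1a (0.964) and LOC691909 (0.961), of 271 genes with a mean of at least 1 FPKM and a log2 range of at least 1. Without ZT7 Cars was at 0.998 and Aldh18a1 at 0.980. The other genes of the group were not among the nearest: over all 9506 retina genes with a mean of at least 1 FPKM, Ddit3 (0.915) ranked 713 and Atf5 (0.871) 1339, followed by Trib3 (0.802), Atf4 (0.780) and Phgdh (0.758), and Psat1 was at -0.23. Without ZT7 Atf4 was at 0.133 and Psat1 at -0.56. In the pineal gland the most alike of 1152 genes were Mmp14 (0.993), Slc30a6 (0.982), Foxred2 (0.979), Tubb5 (0.971) and Zfp143 (0.966), none of which was among those of the retina, and the other genes of the group ranged from -0.51 (Ddit3) to 0.779 (Atf5). The deviations of single libraries described above, such as retina ZT7 and pineal ZT19, bear on many genes at once, so these values are a description.

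Between the mixed tissue pools, Atf5 had 15.3 FPKM at ZT19 and 28.6 FPKM at ZT7, a ratio of 0.534, and Trib3 0.821 and 1.29 FPKM, a ratio of 0.634. The ratios of the other 5 genes lay between 0.822 (Atf4) and 1.06 (Psat1). With 1 library at each time these have no replicate check.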

How the data were processed

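The authors deposited FPKM per RefSeq transcript for 14 libraries of polyadenylated RNA, and no counts were used, so exact depth is unknown. TopHat 1.3.1, Cufflinks 1.2.0 and the rn4 build are named, per the submitters' processing notes. Summed FPKM lay between 152281 and 212634 per library, and 1 fragment in a transcript of 1 kb was worth roughly 0.0216 to 0.0527 FPKM. The 16932 transcripts were summed by gene ID to 16472 genes. Starts in the table count from 0, so 1 was added. Gapdh was listed near 0, so genes with near-identical copies are uncertain.

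The tests used log2(FPKM + 1) and limma 3.58.1 (R 4.3.3, trended empirical Bayes, two-sided). Genes had to reach 1 FPKM in 2 or more libraries, which left 10416 over time and 11656 between tissues, with Benjamini-Hochberg adjustment over all of them and a threshold of 0.05. Residual degrees of freedom were 6 over time and 11 between tissues, where the libraries of a tissue over the day served as its replicates, so p-values measure the spread between these pools and times. Named genes were the 7 genes; in each list up to 3 rhythmic genes with the largest range and up to 2 in each direction with the largest tissue difference; and the 5 genes most like Asns in each tissue. Other genes were named after their values were seen, and some items that meet the rule are not reported here. The 7 genes and all lists were chosen with earlier results of these data known. Alternatives were other pseudocounts, filters and scalings, single libraries left out, a tissue fitted alone and a block for time of day.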

Additional observations from a re-analysis of the deposited data

Results flagged for a closer look

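Fitted rhythms differed between the pineal gland and the retina for 8 list genes, by the interaction test of limma. The adjusted p was 0.0001144 for Asl, 0.008278 for Slc7a5, 0.01115 for Xpot, 0.02238 for Mthfd2, 0.02309 for Creb3, 0.03258 for Slc7a1, 0.04103 for Aldh1l2 and 0.04718 for Gls2. Asl had 8.79 to 94.9 FPKM in pineal glands and 2.74 to 3.95 FPKM in retinas over the day, and its call held in 18 of 18 alternatives. Slc7a5 had 20.9 to 53.7 FPKM in pineal glands, highest at ZT23, and 31.8 to 48.9 FPKM in retinas, highest at ZT7. Xpot had 10.6 to 39.3 FPKM in pineal glands and 6.72 to 9.11 FPKM in retinas. Slc7a5 and Xpot each lost the call in 1 of 18 alternatives, without retina ZT7 (adjusted p of 0.06022 and 0.07827, limma). The call was lost in 5 of 18 alternatives for Mthfd2 and for Creb3, 11 of 18 for Aldh1l2, 9 of 17 for Slc7a1 and 14 of 17 for Gls2, so these rest on single libraries or settings.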

How the results depend on the processing

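The tissue differences were the least dependent on processing. Over the alternatives run, the 7 genes kept their direction and their side of the threshold in pineal against retina in all but 4 of 146 results, and their number called stayed within 1.5 times. The calls over the day rest on 1 library a time and moved more. With time of day as a replicate block over the pineal and retina libraries, which pairs them by time and not by animal, 7785 genes, 4 of 7 genes and 62 list genes differed between pineal gland and retina, against 8030, 4 and 62 without it.

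For pineal rhythm, the 2 of 7 genes became 1 with no filter, 1 with at least 5 FPKM in 2 libraries (where Trib3 was not tested), 1 with the pineal gland fitted alone and 0 when it was also scaled by median ratio. All genes called were 535 and 544 in these last fits, against 2160, and list genes 7 and 6, against 22. For late dark against light, 758 genes, 1 of 7 and 12 list genes became 477, 0 and 7 with no filter, 121, 0 and 1 with the pineal gland alone, 99, 0 and 1 when also scaled, and 0, 0 and 0 with ZT15 counted as late dark. For retina rhythm, 106 genes and 0 list genes became 58 genes with a pseudocount of 0.1 FPKM, 191 genes and 2 list genes with 5 FPKM, 64 genes with no filter, 3 list genes with at least 5 FPKM in 2 libraries, 179 genes and 5 list genes after quantile normalization, and 3 list genes after median ratio scaling. With the retina alone these were 781 genes and 20 list genes, and 312 and 13 when also scaled. Of all retina calls, 31.1% peaked in the dark as deposited, 55.9% after quantile normalization and 70.6% after median ratio scaling. The 516 genes and 8 list genes whose rhythms differed became 324 and 4 with no filter.

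Leaving out 1 library at a time gave 889 to 2620 genes, 1 to 4 of 7 and 9 to 34 list genes for pineal rhythm; 163 to 1600 genes, 0 to 1 of 7 and 2 to 17 list genes for late dark; 12 to 415 genes and 0 to 13 list genes for retina rhythm; 178 to 828 genes and 2 to 20 list genes for the rhythm difference; and 31 to 53 list genes for pineal against mixed tissue, against 48. Where mixed tissue kept 1 library, that library was assumed to vary like the other tissues.

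Values that turned direction were all short of the threshold. Psat1 in pineal rhythm had its peak moved by over 6 h after quantile normalization (range 0.09188) and with the pineal gland alone after scaling (0.02046), and its range was 0.1144 to 0.4586 without single libraries. In late dark against light, Psat1 stood at 0.009777 after quantile normalization, and Atf4 at 0.1241 after median ratio scaling, 0.1381 with the pineal gland alone as well, and -0.11 to 0.05843 without single libraries. Trib3 in pineal against retina was 0.1184 after quantile normalization, and Asns in retina against mixed tissue was -0.08326 to 0.2768 without single libraries. The cause of these changes was not tested. FPKM carry no depth, so counting error could not be given, and Trib3, at 0.821 to 2.64 FPKM, and Psat1 in the pineal gland lie closest to the level of few fragments.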
